A study of Macaca mulatta with 5 samples.

Results

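Isolated H3K4me2 islands are stretches of enriched chromatin that stand alone in the genome. They were chosen by the positions of the islands the authors called, as the autosomal islands of the authors' deposited table whose nearest island on each side, edge to edge, lay at least 100 kb away. The rule was met by 1821 of 58414 autosomal islands (3.12%), and the table holds 59189 islands in all. A further 40 autosomal islands are the first or the last on their chromosome and could not be judged. The islands come from prefrontal cortex of rhesus macaques (Macaca mulatta), profiled by chromatin immunoprecipitation and sequencing (ChIP-seq) with an antibody against dimethylated lysine 4 of histone H3. Of the 4 H3K4me2 libraries each stands for a single monkey, of 0.4, 9, 22 or 26 yr. The 1 input library is DNA of crosslinked, sonicated chromatin without immunoprecipitation, from tissue pooled over 7 monkeys, among them those 4. The tissue is bulk cortex, so a change in the mark and a change in the mix of cell types cannot be told apart. The labels give neither sex nor any treatment, and age and animal cannot be told apart.

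H3K4me2 marks promoters and enhancers, both active and poised, and is laid down by methyltransferases of the MLL and SET1 families and removed by demethylases such as LSD1. In neurons and glia it marks regulatory elements both next to genes and far from them. No annotation and no sequence of the files' genome build was used here. Islands are therefore named by position in that build, and the gene or promoter each touches was not analysed here.

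The 5 libraries held between 8595726 and 14148769 reads. The median isolated island held 22, 29, 39 and 40 reads from the youngest to the oldest animal, and 14 input reads, which limits what can be said of any single island. The authors called islands on the 4 H3K4me2 libraries together. Position, width and enrichment over input were thus fixed by the calls the rule rests on, and are given as a description. The levels at each age were not part of the rule, although the calls drew on the same reads. Every interval below covers counting error only.

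Isolated islands were narrower than the rest, yet more strongly enriched. Their median width was 2000 bp (quartiles 1200 and 3200) against 2600 bp (1600 and 4200) for the other 56593 autosomal islands. Of the isolated islands, 13.8% were under 1 kb wide and 5.55% reached 5 kb, against 5.48% and 18.3% of the others. The fold that the authors deposited, which divides pooled H3K4me2 reads by input reads after scaling to library totals, had a median of 3.81 (quartiles 2.44 and 5.52) against 2.30 (1.77 and 3.61). Read density over the 4 libraries was 73.1 reads per kb at the median against 48.8, while the input was slightly sparser, at 6.82 against 7.5 reads per kb. When all autosomal islands were divided by fold into 4 equal groups, 938 isolated islands (51.5%) fell in the strongest, at a fold of 3.69 or more, and 162 (8.9%) in the weakest, at 1.78 or less. They covered 4.21 Mb, which is 2.13% of the sequence in autosomal islands.

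The authors' fold was larger in each class with more distance from the nearest island. The median fold was 2.21 for the 42377 islands with a neighbour under 10 kb away, 2.62 for the 11570 at 10 to 50 kb and 3.55 for the 2606 at 50 to 100 kb. Past the limit it was 3.66 for 1195 islands at 100 to 200 kb, 3.81 for 514 at 200 to 500 kb and 4.52 for the 112 with at least 500 kb free on both sides. Width followed no such order, at 2800, 2200, 2200, 2000, 1800 and 2200 bp over the same classes. The share in the strongest group by fold was 20.3% under 10 kb and 68.8% at 500 kb or more. The plot of fold, width and density by distance shows that islands at 50 to 100 kb already had medians close to those of the isolated ones.

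**Figure D1:**
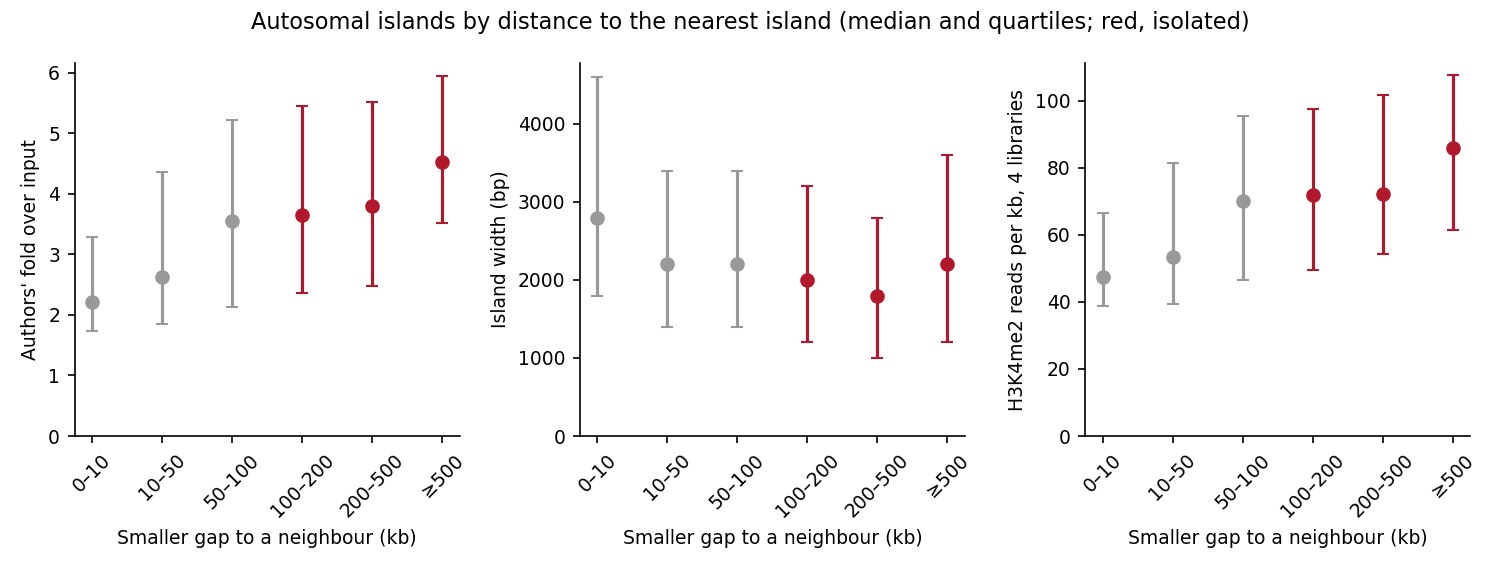
Authors' fold over input, island width in bp and H3K4me2 reads per kb over 4 libraries (y axes) against the smaller of the gaps to the neighbouring islands in kb (x axes). Points are medians and bars run between quartiles over the islands of a class, with isolated islands in red. The median fold increases from 2.21 to 4.52 across the classes, while width shows no such order.

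Islands just inside and just outside the 100 kb limit had overlapping folds. Just inside, chr1:67133401-67134800 had a gap of 100000 bp on its right and an authors' fold of 1.59, chr4:35673201-35678400 had 6.08, and chr6:142902801-142906200 had 4.72. Just outside, with a gap of 99800 bp, chr10:42611001-42612600 had a fold of 2.09 and chr12:31871401-31874600 had 4.41. Also outside was chr12:31974401-31975400, with 0 input reads, for which no fold is given here. Of the isolated islands themselves, 3 had no input read and 83 had at most 3, so their folds rest on few input reads. The authors' fold behaves as if 0.25 input reads stood in for 0.

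Isolated islands were spread unevenly over the chromosomes. Chromosome 5 held the most, 165, which was 10.8% of its islands, followed by chromosome 6 with 155 (6.09%) and chromosome 2 with 139 (4.74%). The smallest numbers were on chromosomes 19, with 9 of 3571 islands (0.252%), and 16, with 14 of 4003 (0.35%). The same chromosomes are the extremes of island density, with 8.40 islands per Mb on chromosome 5 and 55.5 on chromosome 19. Per 10 Mb, isolated islands numbered 10.1 on chromosome 12 and 1.40 on chromosome 19. Many had another isolated island as a neighbour. They formed 1049 uninterrupted series along the chromosomes, of which 616 held a single island, 242 held 2 and 191 held 3 or more, so that 721 islands belonged to series of 3 or more. The longest had 8 isolated islands in a row over 3.78 Mb of chromosome 13, from 129424001 to 133204000.

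The most isolated member was chr17:68046401-68055400, with 3652 kb free on its left and 3583.2 kb on its right. It was also among the 5 widest, at 9000 bp, and its reads numbered 155, 231, 265 and 286 from the youngest to the oldest animal, beside 60 input reads. The next by smaller gap was chr1:180181601-180188200, with 2363.2 and 3694.8 kb free, and reads of 65, 101, 136 and 156 in order of age. At chr5:63720801-63724600 (1905.4 and 3935.6 kb free) the reads were 78, 122, 180 and 214, and at chr18:32818401-32820200 (2125.6 and 1909.2 kb free) they were 26, 36, 41 and 53. In these 4 the infant library had the fewest unscaled reads and the 26 yr library the most, but library depth follows the same order. With TMM scaling the first of them had 211, 236, 231 and 236 reads. On that scale chr1:180181601-180188200 had 88.5, 103, 119 and 128, and chr5:63720801-63724600 had 106, 125, 157 and 176. For chr18:32818401-32820200 the values were 35.4, 36.8, 35.7 and 43.6. The remaining one, chr5:29373401-29374000, was only 600 bp wide and followed no such order, with 13, 3, 9 and 19 reads.

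Wide and dense members differed in how much of their signal the input shared. The widest, chr4:5901601-5916400, spanned 14800 bp at 92.5 H3K4me2 reads per kb and 5.88 input reads per kb. Next came chr1:90028601-90041400 at 12800 bp and chr5:25609001-25619000 at 10000 bp. The chromosome 5 island had 3751.6 kb free on its left, with 259, 349, 490 and 551 reads in order of age. The densest member, chr8:8612601-8617800, had 238 H3K4me2 reads per kb, but its input density of 35.4 reads per kb was the highest among isolated islands and its fold only 1.87. Also dense were chr5:180424801-180425800 with 219 H3K4me2 and 15.0 input reads per kb, and chr18:7578001-7579400 with 207 and 7.14. An input over 3 times the autosomal median density was found at 4 isolated islands (0.22%) and at 0.193% of the others. A fold of at least 10 was found at 46 isolated islands, which is 2.53% of them, and at 708 of all 58414 autosomal islands.

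Averaged over all isolated islands, the reads formed a sharp peak at the centre. In the central 200 bp on either side, the mean read density was 6.32 times background in the infant, 8.92 times in the 9 yr animal and 11.6 times in both oldest animals, while the input reached 1.53 times. Background here is the mean density in 215550 autosomal windows of 10 kb free of islands. At 4 to 5 kb from the centre the densities were 1.10, 1.14, 1.14 and 1.17 times background. At the other autosomal islands the peak was lower, at 4.75, 6.57, 7.74 and 7.61 times background, and the level 4 to 5 kb away stayed between 2.25 and 3.11 times. Forward and reverse reads were offset, as for fragments longer than the reads. The median reverse 5' end lay 148.5 bp downstream of the median forward 5' end at the typical isolated island (1812 islands with enough reads), against 117 bp at the others. From the weakest to the strongest group by fold, the isolated islands had 119, 117, 141 and 169 bp. In the input the median was 23.5 bp, over only the 502 isolated islands with enough input reads, with wide quartiles of -353 and 484 bp.

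**Figure D2:**
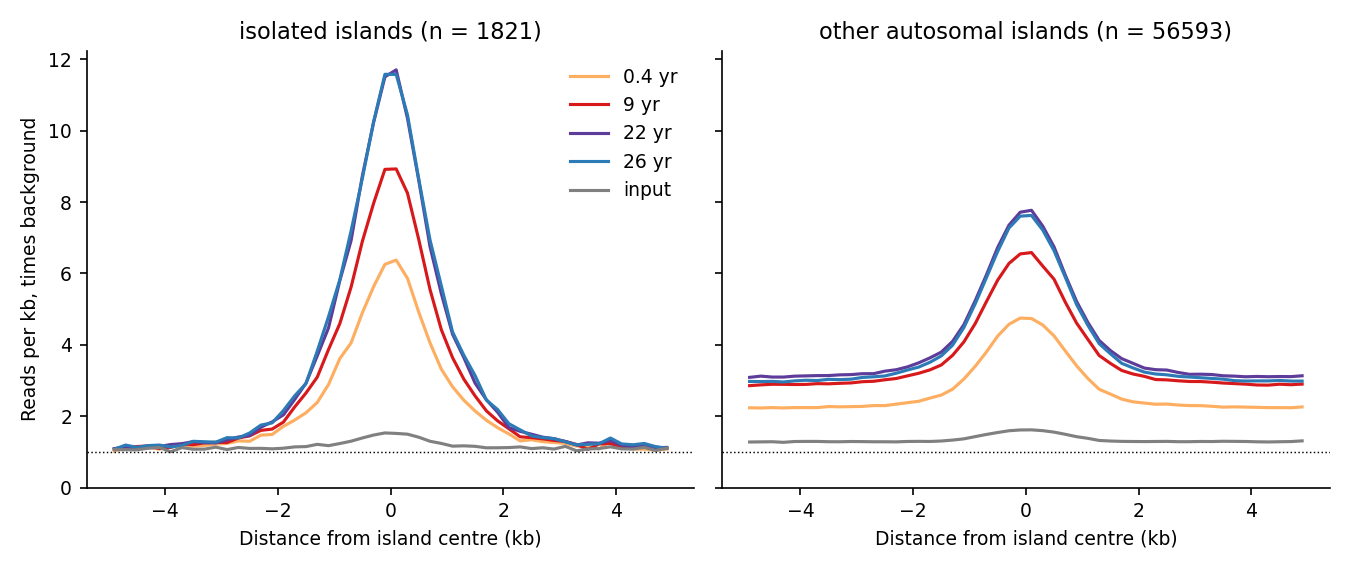
Mean reads per kb as a multiple of background (y axis) against distance from the island centre in kb (x axis), for each of the 4 H3K4me2 libraries and the input. Isolated islands (left) peak at 6.32 to 11.6 times background and stand at 1.10 to 1.17 times at 4 to 5 kb, whereas the other autosomal islands (right) peak lower and stay between 2.25 and 3.11 times there.

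Outside the islands the H3K4me2 level came down to that of the input within 10 kb. A low level in these gaps follows in part from the rule, which keeps called islands out of them. In the first kb outside the edge the H3K4me2 level, relative to background and to the input at the same place, was 1.07, 1.15, 1.18 and 1.22 from the youngest to the oldest. From 5 to 10 kb it was 0.977, 0.97, 0.972 and 0.983, and from 50 to 100 kb it was 0.954, 0.926, 0.925 and 0.929. The gaps held input reads at the usual density. Input density over the 100 kb on each side had a median of 4.82 reads per kb (5th to 95th percentile 3.82 to 6.12), against 4.76 in the background bins. At the median, 1% of the 1 kb pieces in such a stretch had no read in any of the 5 libraries. The exceptions were 208 islands with over 10% of pieces empty on at least 1 side, and 32 of the 3642 sides were over 50% empty. In those the distance to the next island includes stretches without mapped reads.

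**Figure D3:**
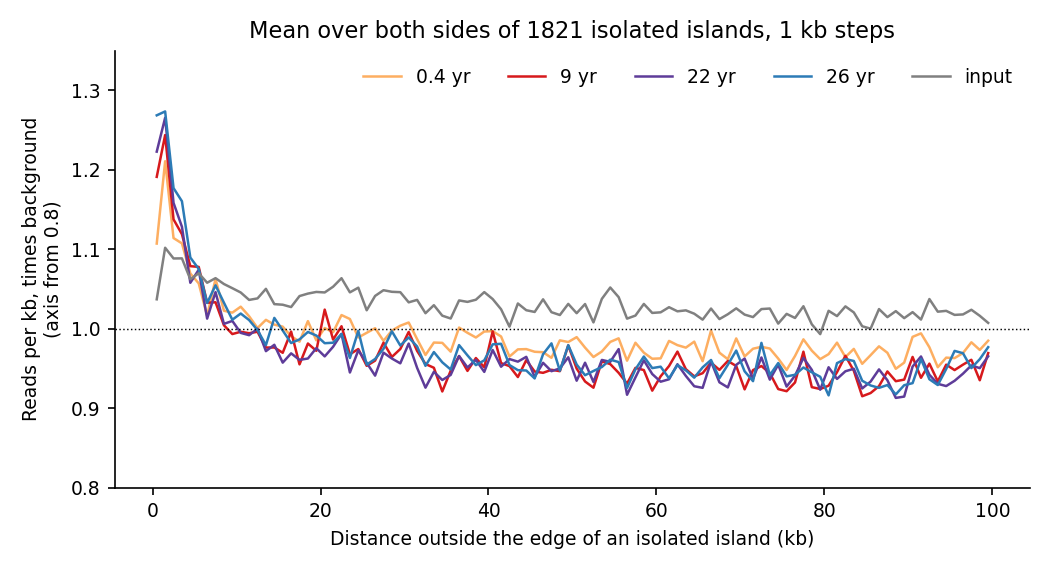
Mean reads per kb as a multiple of background (y axis, from 0.8) in 1 kb steps outside the edges of the 1821 isolated islands (x axis, kb), with both sides joined, for each library. The 4 H3K4me2 lines start above the input, cross it within 10 kb and on average lie under it from there to 100 kb.

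The islands were called on pooled reads, so each library was also looked at alone, by setting the density in the island against that in the 50 kb on each side. Each H3K4me2 library was part of that pool, and the rule keeps other called islands out of these flanks. An excess was thus favoured in advance, and is given as a description. The median excess over these flanks was 5.42-fold, 7.42-fold, 9.14-fold and 9.29-fold from the youngest to the oldest, whereas the input had 1.45-fold. An excess of 2-fold or more was found at 1742 isolated islands in the infant (95.7%), then at 1800 (98.8%), 1805 (99.1%) and 1808 (99.3%) as age increased, and for input reads at 297 (16.3%). All 4 libraries reached 2-fold at 1715 islands (94.2%) and none did at 3. In 64 islands the infant library alone fell short, and 13, 6 and 7 were missed only at 9, 22 and 26 yr. The 297 islands where the input also reached 2-fold were narrow, with a median width of 1200 bp against 2200 bp for the rest, and weaker, with a median fold of 2.54 against 4.18.

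The study's title concerns a build-up of H3K4 methylation over postnatal life. In the 3 older animals a larger share of reads lay in isolated islands than in the infant. Of the infant's autosomal reads 0.66% lay in isolated islands, with a Clopper-Pearson exact interval at 95% of 0.654 to 0.665. The 9 yr animal had 0.816% (0.81 to 0.822), the 22 yr animal 0.977% (0.971 to 0.983) and the 26 yr animal 1.00% (0.995 to 1.01), while the input had 0.214% (0.211 to 0.216). The 22 and 26 yr shares lie close together and above the other libraries. Of the reads in all autosomal islands, isolated islands held 2.67%, 2.66%, 2.89% and 3.02% from the youngest to the oldest animal. With 1 library per animal, more of the mark and a library-wide difference in enrichment cannot be told apart. Relative to background reads, the summed reads of the older animals were 1.38, 1.73 and 1.76 times the infant's, in that order. Their sum exceeded the infant level on all 20 autosomes in each older library. The log2 ratio ran from 0.08 on chromosome 19, which has 9 isolated islands, to 0.62 on chromosome 15 for the 9 yr animal. For the 26 yr animal the same chromosomes were the extremes, with 0.50 and 0.95. Because no age has a second animal, the spread among monkeys of like age is unknown, and no test of these shares was made.

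Island by island, with counts scaled to background reads, the median log2 ratio to the infant was 0.43 at 9 yr, 0.71 at 22 yr and 0.76 at 26 yr. Over all autosomal islands the medians were 0.41, 0.59 and 0.56. The ratio was above 0 at 1407 (77.3%), 1591 (87.4%) and 1666 (91.5%) isolated islands in the same order, and at 78.1%, 86.1% and 85.4% of all autosomal islands. Scaling each island to its own flanks of 50 kb instead gave 0.44, 0.74 and 0.76. TMM (trimmed mean of M values) scaling, under which the typical island shows no change, gave 0.022, 0.11 and 0.19, against -0.003, -0.01 and -0.01 over all autosomal islands. With TMM isolated islands above the infant were 51.7%, 58.0% and 65.7%, against 49.7%, 49.1% and 49.1% of all autosomal islands. With background scaling the infant library was the lowest of the 4 at 1298 isolated islands (71.3%) and at 67.9% of the others. On that scale the highest was the 26 yr library at 46.3% of isolated islands and 34.9% of the others, the 22 yr library at 40.2% and 42.8%, and the 9 yr library at 9.34% and 17.6%.

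Isolated and other islands were also set side by side at like fold. Within the strongest group by fold, the median log2 ratio with background scaling was 0.51, 0.86 and 0.88 for isolated islands as age increased, beside 0.56, 0.82 and 0.85 for the others. Within the weakest group isolated islands had 0.09, 0.26 and 0.36, beside 0.26, 0.38 and 0.29. At 9 yr the isolated islands lay under the others in all 4 groups, and at 26 yr over them in all 4. At 22 yr they lay under the others in both weaker groups and over them in both stronger groups. With input subtracted, the weakest group had 0.23, 0.54 and 0.69 for isolated islands, beside 0.55, 0.79 and 0.61. The strongest group then had 0.63, 1.03 and 1.05, beside 0.69, 1.00 and 1.03. The fold that forms the groups was made from the same H3K4me2 reads. None of these differences was tested. The most remote islands, with at least 500 kb free on both sides, had medians of 0.50, 0.86 and 0.89 in order of age, but these 112 are also the strongest class by fold.

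**Figure D4:**
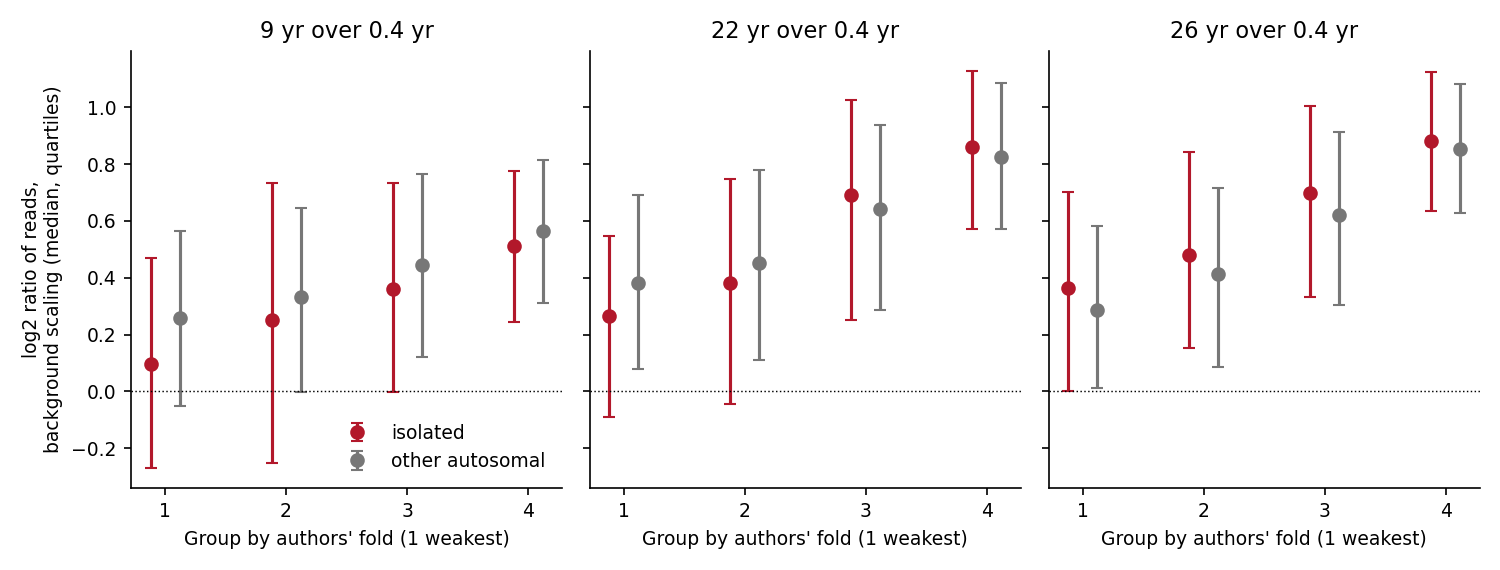
Log2 ratio of reads to the 0.4 yr library with background scaling (y axes) for 4 groups of islands by authors' fold, from weakest to strongest (x axes), at 9, 22 and 26 yr. Points are medians and bars run between quartiles over islands. Isolated islands (red) and the others (grey) both have higher medians in group 4 than in group 1. For isolated islands at 26 yr these are 0.88 against 0.36 as plotted, and 1.05 against 0.69 with input subtracted.

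A linear trend with age was tested on all autosomal islands with edgeR's quasi-likelihood test, in which age in years is a number and 4 libraries leave 2 residual degrees of freedom. Of the 1821 isolated islands 1791 passed the filter on low counts. With TMM scaling 0 of them rose and 0 fell at an adjusted p under 0.05, as over all islands (background 0% of 58049 in each direction). At an unadjusted p under 0.05 there were 178 isolated islands with a rising slope (9.94%) and 30 with a falling one (1.68%). Over all islands these shares were 3.51% and 3.42%. DESeq2 and limma-voom also called 0 isolated islands in each direction, and at the unadjusted level gave 35 rising and 5 falling (over all islands 0.587% and 0.322%) and 161 rising and 27 falling (3.12% and 3.62%). The same was counted within fold groups. In the strongest group 15.7% of 924 isolated and 9.88% of 13509 other islands had a rising slope at the unadjusted level. In this strongest group the medians were 244 pooled reads and 2400 bp at isolated islands, and 267 pooled reads and 2800 bp at the others. In the weakest group 0 of 162 isolated islands had a rising slope and 12 a falling one (7.41%), against 0.312% and 6.62% of the others. No test of the difference between isolated and other islands was made.

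With background scaling edgeR called 76 isolated islands as rising (4.24% of those tested, against 1.18% of all islands) and 0 as falling (against 0.00172%). The 76 lay on 17 autosomes, had medians of 5.70 in fold and 2400 bp in width, and counted 63 islands of the strongest group and 0 of the weakest. Their fitted log2 change between the youngest and oldest animal ran from 1.24 to 3.45, with a median of 1.40. All 76 also had an unadjusted p under 0.05 with TMM. This count changed with the libraries that were fitted. Leaving out the infant gave 1 call and leaving out the 9 yr animal 455, whereas leaving out the 22 yr animal gave 0 and the 26 yr animal 28, in fits with fewer residual degrees of freedom. As shares of the isolated islands tested these were 0.0563%, 25.7%, 0% and 1.65%, against 0.019%, 15.1%, 0.014% and 0.513% of all islands. With total reads 2 isolated islands were called as rising (background 0.031%).

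Among rising slopes the smallest p with TMM belonged to chr5:54627801-54630600, which held 40, 57, 102 and 137 reads as age increased and 19 input reads. Its fitted log2 change was 1.09 (edgeR adjusted p = 0.694), and with background scaling 1.61 (edgeR adjusted p = 0.0141). The 50 kb on each side held 252, 239, 266 and 250 reads, which varied less than the island. At chr11:68432401-68436400 the reads were 56, 82, 158 and 172, with 232, 207, 257 and 288 in the flanks. At chr18:7578001-7579400, also among the densest members, they were 29, 54, 106 and 101. At chr11:34818001-34821000 they were 47, 89, 138 and 160. In these 4 islands every older library was above the infant, and the 22 and 26 yr libraries were above 9 yr. The chr7:82844401-82845200 island differed, with 6, 0, 14 and 36 reads, an input of 10 reads over 800 bp and an authors' fold of only 2.00. Against a limit of 3 reads at 9 yr, its 26 yr level was at least 9.66-fold higher with TMM and at least 10.8-fold higher with background scaling. With TMM each of these 5 had an edgeR adjusted p of 0.694. With background scaling all 5 were among the 76, and the chromosome 7 island had an edgeR adjusted p of 0.00282. When the infant library was left out, the chromosome 7 island was called with TMM, at a slope of 0.37 log2 units per year.

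The falling slopes with the smallest p belonged to islands with an authors' fold below the median of isolated islands, 3.81. At chr6:5599401-5600600 the reads were 50, 18, 19 and 23 in order of age, with 22 in the input over 1200 bp. The infant was high and the 3 older libraries were close to each other. Its fitted log2 change was -1.86 with TMM (edgeR adjusted p = 0.514) and -1.26 with background scaling (edgeR adjusted p = 0.0731). With TMM it was called as falling without the 9 yr library, at a slope of -0.08 log2 units per year, and without the 26 yr library, at -0.10. At chr1:149306601-149308600 the reads were 61, 41, 42 and 40, with 36 in the input. Smaller counts were found at chr9:25724801-25725800, with 20, 16, 12 and 7 reads, at chr20:25282801-25285800, with 35, 26, 19 and 24, and at chr10:24852001-24854200, with 29, 21, 13 and 20. The authors' fold of these 5 was 1.87, 1.63, 2.41, 1.44 and 1.51 in the order given. Input density was 18.3 and 18.0 reads per kb at the first pair and 8.00 to 8.67 at the rest, against an autosomal median of 7.5. The part of the dense input in these slopes was not tested.

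**Figure D5:**
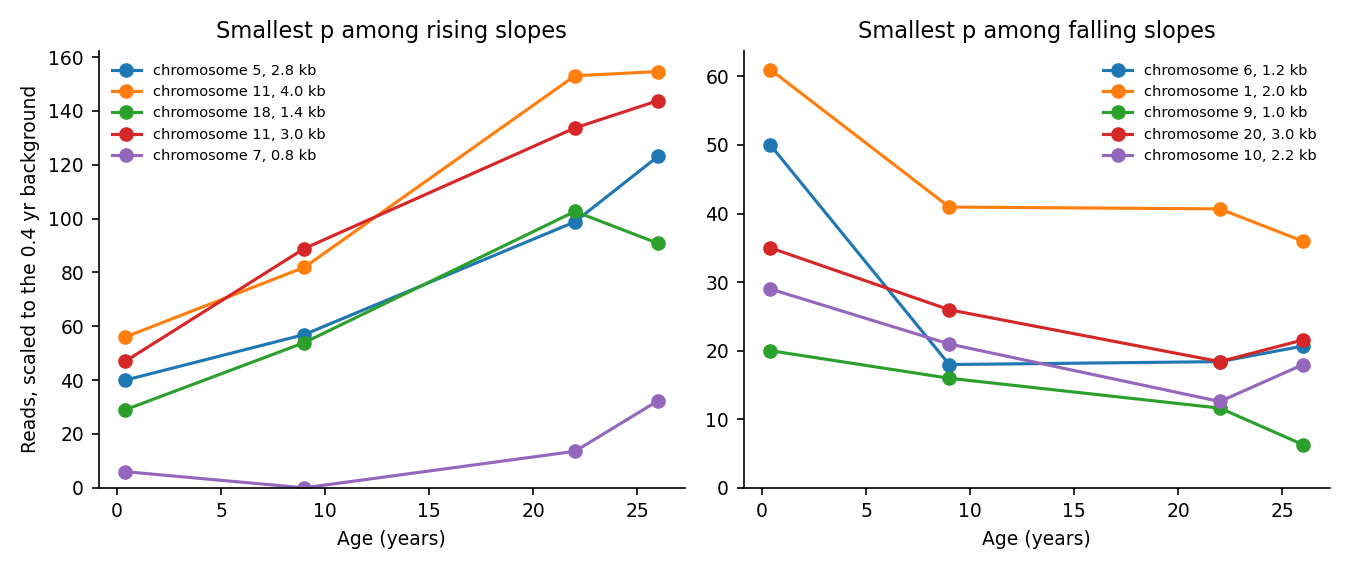
Reads at each age, scaled to the background of the 0.4 yr library (y axes), against age in years (x axes), for the 5 isolated islands with the smallest p among rising slopes (left) and the 5 among falling slopes (right), each a line with 1 point per animal. On the left 4 islands are lowest in the infant, and on the right all 5 are highest there.

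Pairs of libraries were compared by the log2 ratio of TMM-scaled counts, for islands whose reads in the pair summed to 50 or more, with no test. Between 0.4 and 9 yr, 7 of 930 isolated islands were over 2-fold higher at 9 yr (0.753%, against 1.23% of all islands) and 8 were over 2-fold lower (0.86%, against 0.916%). At 22 yr, 34 of 1008 were over 2-fold above the infant (3.37%, against 1.46%) and 7 below it (0.694%, against 1.14%). At 26 yr, 28 of 1033 were above (2.71%, against 1.22%) and 6 below (0.581%, against 1.13%). The 3 comparisons share the infant library. With background scaling those above and below the infant were 68 and 2 at 9 yr (all islands 8.1% and 0.136%), 346 and 2 at 22 yr (20.8% and 0.0532%), and 346 and 1 at 26 yr (18.1% and 0.0432%). Isolated islands with TMM ratios over 2-fold above the infant at 26 yr had a median fold of 5.28 and a median input of 6.41 reads per kb. The 6 below it had a median fold of 1.72 and a median input of 16.5 reads per kb.

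Single islands illustrate both directions. At chr4:72459601-72460400 the reads were 4, 12, 48 and 23 in order of age, with a TMM log2 ratio of 2.79 at 22 yr (exact 95% counting interval 1.49 to 4.87) and 1.66 at 26 yr (0.25 to 3.79). At chr2:11251201-11253200, which has 1897.6 kb free on its left, they were 18, 54, 84 and 73, and the ratio was 1.15 at 9 yr (0.38 to 2.03) and 1.55 at 22 yr (0.83 to 2.40). At chr18:14221801-14224800 they were 19, 51, 88 and 81, with 1.34 at 26 yr (0.63 to 2.17). All 3 were named for their ratio to the infant, and in each the 22 yr library was the highest. Other islands above the infant were chr5:31316601-31318600 and chr1:125919001-125920800 at 9 yr, both with 1.21, chr14:91890201-91891400 at 22 yr with 1.55, and chr9:133178601-133180200 and chr6:153510401-153514000 at 26 yr with 1.33 and 1.30. These last islands, with 10, 10, 25 and 43 and with 18, 50, 45 and 75 reads, were highest at 26 yr. Each was named for a large ratio at a given age, which favours a high count at that age. The age of the highest count is therefore no result, and the intervals do not allow for this choice. In the other direction, chr4:130745401-130746600 had 39, 13, 17 and 30 reads, with -1.96 at 9 yr (-3.03 to -1.06) and -1.10 at 26 yr (-1.84 to -0.38). Of its reads 75.2% were on the forward strand. At chr11:127713001-127714400 the reads were 68, 35, 55 and 61, with -1.36 at 9 yr (upper bound -0.76) and an input of 28.6 reads per kb.

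The 3 older animals were also compared with each other. With TMM, 14 of 1049 were over 2-fold higher at 22 than at 9 yr (1.33%, against 0.826% of all islands) and 3 lower (0.286%, against 0.954%). At 26 against 9 yr, 17 of 1096 were higher (1.55%, against 0.473%) and 5 lower (0.456%, against 0.473%). Between 22 and 26 yr, the pair closest in age, 6 of 1138 were higher at 26 yr (0.527%, against 0.803%) and 10 lower (0.879%, against 0.724%). With background scaling 47 were higher and 0 lower at 22 against 9 yr (all islands 2.11% and 0.373%). The like counts were 29 and 1 at 26 against 9 yr (1.11% and 0.17%), and 6 and 10 at 26 against 22 yr (0.704% and 0.849%). The median TMM log2 ratio of these islands was 0.16 at 22 against 9 yr, 0.18 at 26 against 9 yr and 0.04 at 26 against 22 yr. The standard deviation over islands was 0.36 for the pair of 22 and 26 yr and 0.39 for 0.4 and 26 yr, against 0.38 and 0.44 for the other autosomal islands.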

How the data were processed

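The authors deposited aligned reads of 35 bases, a file for each library, and 1 island table. Within a library every combination of position and strand was unique. Neither aligner nor genome build is given in the sources used here. The submitters' processing notes name SICER, whose settings, as the table is titled, were windows of 200 bp, gaps of 400 bp and an FDR of 0.001. No header names its columns. Tested on the reads, its columns hold the authors' count of pooled H3K4me2 reads (within 2 reads of the count without repeats made here for 98.5% of islands), the authors' input count (equal for 86.6%), their p-value and adjusted p-value against the input, and their fold, a ratio scaled by totals. Both counts, the p-value and the fold ratio were deposited as such by the authors.

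Reads were counted per island here, with the 5' end moved 75 bp towards the 3' end. Autosomal reads numbered 8402719, 9405440, 10155000 and 10810296 from youngest to oldest, and the input had 13738020. Background scaling uses reads in bins free of islands. Ratios carry a pseudocount of 0.5 reads. Shares have exact Clopper-Pearson intervals and pairs exact conditional binomial intervals, and reads carry no molecular identifiers. The age slope came from edgeR 4.0.16 under R 4.3.3, on all autosomal islands with a minimum count of 10, TMM scaling and Benjamini-Hochberg adjustment at 0.05. It borrows variance across islands with 33.7 prior degrees of freedom. In simulated counts for 58049 islands with 200 changed, that fit recovered 76% of 4-fold and 14% of 2-fold changes and called 4 unchanged islands. DESeq2 1.42.0 and limma 3.58.1 were alternatives. Counting used Python 3.11.15 with pandas 2.3.3 and numpy 2.4.6, intervals scipy 1.17.1.

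Named islands are the 5 with the largest smaller gap, the most reads per kb, the largest authors' fold, the greatest width and the smallest trend p in each direction, the 3 with the largest ratios to 0.4 yr in each direction, and 3 on each side of the distance limit, of which most are printed. The members and lists were chosen with earlier results of these data known. The X chromosome was left out.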

Additional observations from a re-analysis of the deposited data

Results flagged for a closer look

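The X chromosome lies outside the comparisons, yet it is rich in isolated islands. By the same distance limit 164 of its 775 islands (21.2%) are isolated, against 3.12% on the autosomes. These held 2.10% of the infant's X reads, with a Clopper-Pearson exact interval at 95% of 2.03 to 2.16. The 9 yr animal had 2.92% (2.84 to 2.99), the 22 yr animal 3.65% (3.57 to 3.73) and the 26 yr animal 3.67% (3.60 to 3.75). The input had 0.403% (0.384 to 0.423). These islands were called as enriched over that input on the same reads, so shares above it were fixed by the calls. They are listed because the X chromosome enters no comparison.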

How the results depend on the processing

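No paired analysis was possible because each age has 1 library. In order of age, the share of autosomal reads in isolated islands was 1.64%, 2.01%, 2.36% and 2.45% with a limit of 50 kb, 0.227%, 0.277%, 0.343% and 0.349% with 200 kb, 0.652%, 0.808%, 0.97% and 0.992% with reads not moved, and 0.651%, 0.807%, 0.966% and 0.99% with reads moved 150 bp. The median log2 ratio to the infant at 9, 22 and 26 yr was 0.022, 0.11 and 0.19 with TMM. With total reads it was 0.27, 0.48 and 0.55 (all autosomal islands 0.25, 0.36 and 0.35). With input subtracted it was 0.58, 0.95 and 1.00, and at 9 yr thus lower than over all autosomal islands (0.63, 0.90 and 0.86). With a limit of 200 kb it was 0.40 at 9 yr and 0.75 at 22 yr, and with a pseudocount of 2 it was 0.66 at 22 yr and 0.72 at 26 yr. The 1613 islands with well covered gaps, an alternative chosen after seeing the data, had medians of 0.43, 0.71 and 0.77. They had 71 rising calls with background scaling, where 1.18% of all islands were called.

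Rising calls of the trend with TMM numbered 0 to 1 and falling calls 0 to 1 when each library was left out, 76 rising with background scaling and 2 with total reads. Background-scaled rising calls were 142 with 50 kb and 27 with 200 kb, and, in fits also added after seeing the data, 1, 455, 0 and 28 without the 0.4, 9, 22 and 26 yr library, with 0 to 1 falling. The unadjusted shares of rising and falling slopes were 41.2% and 0.112% with background scaling (all islands 24.5% and 0.107%). With total reads they were 29.1% and 0.447% (15.6% and 0.444%), and with DESeq2 1.95% and 0.279% (0.587% and 0.322%). Without single libraries they ran from 5.13% to 9.10% and from 0.563% to 2.24% (all islands 1.75% to 4.48% and 1.65% to 3.76%). The cause was not tested. Over all islands 1.18% were called as rising with background scaling, whatever the distance limit for the isolated ones.

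With a minimum of 30 reads per pair, islands over 2-fold higher and lower numbered 20 and 33 (9 over 0.4 yr), 54 and 34 (22 over 0.4 yr), 47 and 21 (26 over 0.4 yr), 40 and 22 (22 over 9 yr), 39 and 11 (26 over 9 yr) and 41 and 22 (26 over 22 yr). With at least 100 reads they were 1 and 2, 18 and 2, 12 and 1, 5 and 0, 1 and 2, and 1 and 0 in the same order. Shares over all islands at these minimums are not given here, so the counts have no background beside them. With background scaling and at least 50 reads, islands over 2-fold higher and lower numbered 68 and 2, 346 and 2, 346 and 1, 47 and 0, and 29 and 1 in the first 5 pairs. The median over members put H3K4me2 over input in the first kb at 1.00 at 9 yr and 1.08 at 26 yr, and at 0.82 from 50 to 100 kb at 26 yr. Of the islands named for their trend, none changed the sign of its slope under the alternatives run. Between TMM and background scaling the slope went from negative to positive, with no call on either scale, at chr5:179840401-179840800, the 3 islands just inside the limit and chr12:31974401-31975400 just outside it. Islands at least 2-fold over flanks stayed within 1.5 times with flanks of 20 or 100 kb and with thinned reads.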

Other observations

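The islands with the largest authors' fold were small and had almost no input reads. The first, chr17:7944401-7945000, had 6, 13, 11 and 22 H3K4me2 reads in order of age and 0 input reads. The second, chr2:126134201-126135000, had 8, 8, 11 and 18 with 0 input reads, and the third, chr8:78067401-78067600, had 1, 6, 12 and 9 with 0. Next were chr3:111096801-111097800 with 11, 14, 22 and 15 reads and chr2:3937201-3937800 with 8, 8, 20 and 26, each against 1 input read. At such input counts the order of these folds cannot be read. Narrow members of other kinds were chr4:93382201-93382400, with 2, 13, 7 and 17 reads in 200 bp, and chr5:179840401-179840800, with 20, 14, 17 and 26 reads in 400 bp and an input of 17.5 reads per kb.

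By width, with background scaling, the median log2 ratio to the infant at 9 yr was 0.25 for the 252 isolated islands under 1 kb, 0.35 for the 618 of 1 to 2 kb, 0.49 for the 698 of 2 to 4 kb and 0.48 for the 253 wider ones. At 26 yr these classes had 0.73, 0.66, 0.81 and 0.79. The other autosomal islands of the same classes had 0.36, 0.36, 0.38 and 0.47 at 9 yr, and 0.63, 0.53, 0.52 and 0.60 at 26 yr. No difference between classes was tested.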
